A study of Mus musculus with 8 samples.

Results

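The probe sets described here are those of a mouse whole-genome expression array that carry no gene symbol in the probe annotation supplied with the data. They were taken from all 45037 probe sets other than the manufacturer's controls: 9160 had no symbol, and 2902 of these had a mean log2 signal over the 8 arrays above 2.72, the median of all non-control probe set means. These 2902 are called unlisted probe sets below. Only the mean over all arrays chose them, so the difference between genotypes was not used. Just inside this limit, 1446043_at lay between 2.71 and 2.74 on all 8 arrays, and 1439681_at had 4.09 on 1 array of wild-type sample 2 against 2.50 to 2.60 on the others. Just outside it, 1440588_at, 1441386_at and 1445999_at had means of 2.72. Probe sets with exactly 1 symbol that passed the same limit, 19054 of 34945, served for comparison and are called listed probe sets. A missing symbol does not mean that no gene is measured.

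The arrays measured total RNA of haematopoietic stem cells sorted from mouse fetal liver as lineage-negative, Sca-1+, AA4.1+ and strongly c-Kit+ cells. Wild-type embryos were compared with embryos that carry 1 mutant copy of Crebbp (Crebbp+/-), both on a C57BL/6 background, at an age that the labels give as 14.5 days post coitum in the description and as 14 in the characteristics. Each genotype was sampled in 2 preparations, numbered 1 and 2, with 15 embryos combined in each. From every preparation 2 arrays were run, starting from 12 ng of RNA that was amplified. The labels do not say which part of Crebbp the mutant allele lacks, whether all cells of an embryo carry that allele, or whether the 2 arrays of a sample came from separate cells. The arrays of a sample were therefore averaged, which left n = 2 samples per genotype. The p-values rest only on spread between these preparations, which the test used (limma) estimates in part from other probe sets.

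As background, Crebbp encodes CBP, a coactivator that acetylates histones and other proteins at enhancers and promoters. Expression arrays of this generation were built from clusters of cDNAs and expressed sequence tags (ESTs), short reads of cDNA ends. Many EST clusters were never joined to a gene model. Such probe sets can lie in alternative 3' ends, introns, antisense strands or long noncoding RNAs, so a group of them need not share a function. The annotation names neither an accession nor a position for the unlisted probe sets, so they are identified here by probe set number alone.

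Crebbp itself, the mutated gene, was detected in every sample. The brightest of its 4 probe sets read 12.07 in wild-type sample 1, 11.41 in wild-type sample 2, 11.95 in Crebbp+/- sample 1 and 11.66 in Crebbp+/- sample 2 (log2). It and 1434633_at overlapped between genotypes. The dimmer 1436983_at (7.004 and 6.88 against 6.31 and 6.72) and 1459804_at (4.39 and 4.38 against 3.92 and 4.15) did not, with differences of -0.42 (SE 0.29) and -0.35 (SE 0.24), and none of the 4 passed the test. Since the lacking part is not labelled, these probe sets do not check the genotype. All 11 stem and progenitor markers on the array passed the level limit, with mean log2 levels between 10.91 and 11.04 in the 4 samples. Their median difference was 0.0042, and 5 of the 11 were lower in Crebbp+/-. Among these 5, Hlf differed by -0.54 (SE 0.20) and Mecom by -0.38 (SE 0.14). None of the 11 passed the test. Markers of mature blood lineages averaged between 2.89 and 3.21, and 4 of the 6 on the array, Cd3e, Itgam, Cd79a and Ms4a1, were below the limit. Pf4 lay just above it, and Gp9, of platelets and megakaryocytes, had the highest level, with 6.84 and 6.80 in wild type and 5.37 and 5.85 in Crebbp+/-, a difference of -1.21 (SE 0.31). Of 7 macrophage genes 5 passed, and the 7 averaged 4.997 and 5.33 in wild type and 4.82 and 5.46 in Crebbp+/-. Among them Csf1r, also present in progenitors, had a mean level of 10.19, and Lyz2 one of 9.22 with a difference of -0.54 (SE 0.19). Of 8 hepatocyte genes 6 passed, and the level of the list differed between samples. Over all 8 it averaged 2.84 and 5.68 in wild-type samples 1 and 2, and 4.70 and 4.97 in Crebbp+/-. The 5' minus 3' signal of the Gapdh control was -1.22 and -2.59 in wild type and -0.89 and -1.88 in Crebbp+/- (log2). The part of these measures in the results below was not tested.

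Unlisted probe sets had lower signal in Crebbp+/- than in wild type as a group, whereas listed ones did not. Of 2902 unlisted probe sets 2021 (69.6%) had a negative difference, against 43.5% of listed and 47.0% of all 22518 tested. The median difference (Crebbp+/- minus wild type) was -0.24 on the log2 scale, with quartiles of -0.65 and 0.05, against 0.04 with quartiles of -0.15 and 0.25 in listed probe sets. These counts and medians describe probe sets that share 8 arrays and were not tested as a group. The 562 probe sets with several symbols had a median of -0.0025. In RNA of whole sorted populations, fewer cells of a type and less RNA per cell cannot be told apart. A lower signal by over 1 log2 unit was found for 282 unlisted probe sets (9.72%) and for 224 listed ones (1.18%), with 2.26% over all tested. A higher signal of that size was found for 10 and 193, with 0.937% over all tested.

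No single unlisted probe set passed the test between genotypes. Limma's fit over all 22518 probe sets called 0 (0.0%) at an adjusted p of 0.05, and the lowest adjusted p was 0.99. At an unadjusted p under 0.05, 394 unlisted probe sets (13.6%) were lower in Crebbp+/-, where 3.61% of all tested were, and 17 (0.586%) were higher, where 1.23% of all tested were. Of listed probe sets, 411 (2.16%) were lower and 250 (1.31%) higher. All 4 Crebbp+/- arrays lay below all 4 wild-type arrays for 349 unlisted probe sets (12.0%), where 3.74% of all tested did. They lay above for 38 (1.31%), where 3.24% of all tested did. Omitting Crebbp+/- sample 1 gave 153 lower calls and omitting Crebbp+/- sample 2 gave 200, while omitting wild-type sample 1 gave 73 higher calls.

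The level limit bears on these values. With all 9160 probe sets that lack a symbol the median difference was 0.0011, since the 6258 below the limit sat at background with quartiles of -0.0081 and 0.0074. Among the 2902, 2678 exceeded the limit in the mean of each genotype, 180 (6.20%) in wild type alone and 44 (1.52%) in Crebbp+/- alone. Of listed probe sets 1.66% exceeded it in wild type alone and 1.14% in Crebbp+/- alone. The 2678 had a median difference of -0.21, and 68.7% of them were lower in Crebbp+/-.

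The arrays of each genotype stood apart in the unlisted probe sets. Each value was expressed as a deviation from the probe set's own mean over 8 arrays, and the median was taken per array. It was 0.09 and 0.17 on the arrays of wild-type sample 1, and 0.0075 and -0.01 on those of wild-type sample 2. In Crebbp+/- it was -0.136 and -0.139 on the arrays of sample 1, and -0.10 and -0.16 on those of sample 2. All 4 Crebbp+/- arrays lay below all 4 wild-type arrays, and wild-type sample 1 was the highest. In listed probe sets the genotypes also separated, in the opposite direction and by less: wild-type arrays had medians of -0.0086, -0.02, -0.03 and -0.05, and Crebbp+/- arrays -0.0049, -0.0052, 0.02 and -0.0002. The share of unlisted probe sets above their own mean ran from 48.7% to 63.5% on wild-type arrays and from 30.9% to 37.0% on Crebbp+/- arrays.

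Both pairs of same-numbered samples gave a lower median in Crebbp+/-. Among unlisted probe sets the median difference was -0.27 between the samples numbered 1 and -0.14 between those numbered 2, against 0.03 and 0.06 in listed ones. Both differences were negative for 1447 unlisted probe sets (49.9%) and both positive for 469 (16.2%), where over all tested 28.5% were both negative and 33.9% both positive. The pairs share no sample. Of 481 unlisted probe sets lower by over 1 in the samples numbered 1, 363 (75.5%) were also lower in those numbered 2, with a median of -0.56 there. For listed probe sets this held for 307 of 424 (72.4%), with a median of -0.42. Over all tested it held for 674 of 909 (74.1%), with a median of -0.50, so the unlisted share was near that of all tested. Across the 2902 probe sets the 2 differences correlated with r = 0.34, and across listed ones also with r = 0.34. The probe sets of such a correlation share their arrays and are not replicates. With wild-type sample 1 left out, the median difference between genotypes moved from -0.24 to -0.15.

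Probe sets of this array are numbered in series, and the unlisted ones are not spread evenly over them. In blocks of 1000 numbers, the share with no symbol ran from 2.42% to 65.7%. The 46 blocks were grouped by this share, which uses no signal: 22 low blocks under 10%, 11 middle blocks and 13 high blocks of at least 30%. The high blocks, which lie between the blocks that start with 1432 and 1459, held 1695 (58.4%) of the unlisted probe sets that passed the limit. In them 79.1% of the unlisted probe sets were lower in Crebbp+/-, and the median was -0.40 (-0.24 without wild-type sample 1). The middle blocks had 551 with a median of -0.26. The low blocks had 656, of which 44.5% were lower, and their median was 0.03 (and -0.03 with arrays centred on listed probe sets). The unlisted probe sets as a whole therefore held subsets with different distributions, and those of the low blocks lay close to listed ones.

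Listed probe sets followed the same order of blocks with smaller values. Their median differences were 0.07 in low blocks (12382 probe sets), 0.01 in middle blocks (4225) and -0.06 in high blocks (2447), where 56.8% were lower. In all 13 high blocks the median of the unlisted probe sets was below that of the listed ones, as in 10 of 11 middle and 16 of 22 low blocks. For 1224 genes with listed probe sets in both a high and a low block, the one in the high block differed by a median of -0.21 from the one in the low block. It was the lower of the pair for 823 genes (67.2%). Probe sets of the high blocks were also dimmer for these genes, with a median level of 5.02 against 7.54. At an unadjusted p under 0.05, 17.0% of unlisted probe sets in high blocks were lower in Crebbp+/-, against 3.81% in low blocks, and 6.46% of listed ones in high blocks against 1.13% in low blocks.

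The difference between unlisted and listed probe sets had the same sign in each of 4 classes of signal level, and was smallest in the brightest. Unlisted probe sets were dimmer, with a median level of 4.98 against 6.88 in listed ones. When all tested probe sets were divided into 4 equal classes by mean level, the median differences of unlisted probe sets were -0.24, -0.43, -0.25 and 0.01 from the dimmest to the brightest class. Those of listed ones were -0.003, 0.04, 0.08 and 0.05. Within the high blocks the unlisted medians were -0.28, -0.55, -0.60 and -0.23, over 892, 539, 214 and 50 probe sets, and the listed ones -0.10, -0.11, -0.01 and 0.03. Within the low blocks the unlisted medians lay between -0.0039 and 0.04 in every class. Set against listed probe sets of the same class of level, the median difference of the 2902 was lower by 0.26, and without that match lower by 0.28. Above the upper quartile of all non-control probe set means, the median of the unlisted ones was -0.08.

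Probe set type separated them further. The suffix _at marks probes designed to be unique to a transcript, and _a_at, _s_at and _x_at mark probes that match several transcripts or parts of them. Of the 2902, 2596 (89.5%) were of type _at, against 72.0% of listed probe sets, and their median difference was -0.30. The other 306 had a median of -0.01, and 52.3% of them were lower. They were brighter as well, with median levels of 8.03, 8.28 and 7.01 for _a_at, _s_at and _x_at against 4.81 for _at. Within high blocks the medians were -0.42 for 1627 _at, -0.12 for 51 _x_at, -0.51 for 11 _s_at and 0.02 for 6 _a_at probe sets.

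The comparison by class of the design accession could be made for listed probe sets alone, since the annotation gives none for unlisted ones. Median differences were 0.01 for 4765 probe sets designed on RIKEN ESTs, 0.06 for 5039 on other ESTs, 0.08 for 1796 on RIKEN full-length cDNAs, 0.04 for 3104 on RefSeq transcripts, 0.06 for 2699 on other mRNAs and 0.01 for 1651 with no accession. With arrays centred on listed probe sets these became -0.05, 0.01, 0.02, -0.02, 0.01 and -0.05. The class medians all lay above the unlisted median of -0.24. Restricted to high blocks, RIKEN ESTs had a median of -0.09 (1278 probe sets, 61.1% lower) and other ESTs -0.02 (881), while RIKEN ESTs in low blocks had 0.08. Listed probe sets whose symbol is only a clone or model name, such as those ending in Rik, had a median of -0.04 over 574. Among listed probe sets with separated arrays, the lowest unadjusted p was sought per class and direction. Ssbp2, encoding a partner of the LDB1 transcription complex, had it among RIKEN full-length cDNAs lower in Crebbp+/-, at -1.04 (SE 0.24). Med18, a Mediator subunit, had it among those higher with no accession, at 1.501 (SE 0.41), and neither passed the test.

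The variation of an unlisted probe set over the 8 arrays was divided into genotype, sample number, their interaction and the 2 arrays of a sample. In unlisted probe sets the genotype took a median of 18.9% of the sum of squares and the sample number 15.6%. In listed ones the order was turned, with 12.5% and 26.8%. The 2 arrays of a sample accounted for 38.1% and 35.0%. This last term has more degrees of freedom than each of the others. Variation without any effect would therefore also give it the largest share, and the shares are not directly comparable. The spread between the 2 wild-type samples had a median SD of 0.30 in unlisted and 0.24 in listed probe sets, and that between the Crebbp+/- samples 0.22 and 0.21. These SDs are of single probe sets. The median deviation over all unlisted probe sets varied between samples of a genotype with a pooled SD of 0.059.

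Single unlisted probe sets are named by the lowest unadjusted p among those with separated arrays, 12 lower and 8 higher in Crebbp+/-. None passed the test (limma adjusted p = 0.99 for each). The 2 brightest of them had small spread. Probe set 1444598_at had log2 signals of 11.55, 11.72, 11.68 and 11.59 on the wild-type arrays and 10.49, 10.59, 10.90 and 10.64 on the Crebbp+/- arrays, a difference of -0.98 (SE 0.15). Probe set 1440431_at had 10.42, 10.64, 10.65 and 10.27 against 9.44, 9.48, 9.61 and 9.39, a difference of -1.02 (SE 0.16). In both the gap between genotypes exceeded the range within either genotype. Genotype accounted for 94.5% and 94.2% of their sums of squares.

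The lowest unadjusted p belonged to 1439686_at, with 9.16, 10.31, 9.53 and 9.50 in wild type and 7.63, 7.99, 7.74 and 8.61 in Crebbp+/-, a difference of -1.63 (SE 0.24). Its arrays within a sample differed by over 1 in wild-type sample 1. Probe set 1446656_at had 8.62 on both arrays of wild-type sample 1 and 8.75 on both of wild-type sample 2, against 7.46, 7.09, 7.61 and 6.60, a difference of -1.49 (SE 0.23). Here the wild-type arrays were close and the Crebbp+/- arrays spread. Probe set 1457583_at had 7.20, 7.67, 7.19 and 7.22 against 5.32, 5.37, 5.85 and 5.52, a difference of -1.81 (SE 0.29), and genotype took 95.2% of its sum of squares. Probe set 1458542_at had 7.91, 8.60, 8.42 and 8.38 against 6.62, 6.34, 6.78 and 6.88, a difference of -1.67 (SE 0.27). Within the samples numbered 1 and 2 it differed by -1.78 and -1.57. Of the 12, 8 came from high blocks, 3 from middle blocks and 1 from a low block. Of all 2902 unlisted probe sets, 1695 (58.4%) lay in high, 551 in middle and 656 in low blocks. Whether the 12 differed from this distribution was not tested.

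Of the 12, 1441535_at and 1439857_at had the largest differences, at -1.93 (SE 0.32) and -1.92 (SE 0.32). For 1441535_at 1 array of Crebbp+/- sample 2 had 7.62 and the other 3 of the genotype 6.23 to 6.30, with wild-type arrays at 8.40 to 8.70. For 1439857_at wild-type arrays ran from 6.13 to 7.40 and Crebbp+/- arrays from 4.64 to 5.51. The remaining ones were 1437219_at at -1.41 (SE 0.23), the single one from a low block, 1438788_at at -1.62 (SE 0.27), 1446950_at at -1.64 (SE 0.27) and 1458113_at at -1.64 (SE 0.27). Crebbp+/- arrays of 1446950_at had 2.65, 2.63, 2.43 and 3.73, of which 3 were below the level limit.

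Among unlisted probe sets higher in Crebbp+/-, 1459916_at stood first, with 4.54, 3.95, 4.74 and 5.99 in wild type and 6.44, 6.86, 6.54 and 7.60 in Crebbp+/-, a difference of 2.05 (SE 0.47). Its 2 wild-type samples differed by 1.12, more than the Crebbp+/- samples, which differed by 0.42. Probe set 1442812_at had 5.16, 5.52, 6.19 and 5.24 against 6.74, 6.89, 6.60 and 6.84, a difference of 1.24 (SE 0.29). The brighter 1457954_at and 1418701_at differed by 0.69 (SE 0.20) and 0.80 (SE 0.25), with levels of 8.71 and 8.22. The other 4 were 1456884_at at 0.92 (SE 0.22), 1425015_at at 0.95 (SE 0.27), 1454171_x_at at 1.05 (SE 0.31) and 1445789_at at 1.11 (SE 0.36). The arrays of 1457954_at nearly met, with 8.744 as the highest in wild type and 8.747 as the lowest in Crebbp+/-, as did those of 1445789_at, with 5.04 and 5.12. Wild-type arrays of 1456884_at and 1454171_x_at reached down to 2.705 and 2.47, below the level limit.

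The brightest unlisted probe sets had small ranges and lay close to the top of the scale, where the highest mean of any probe set was 14.20. The part of that limit in their small ranges was not tested. The 8 with the highest means, from 13.66 for 1435872_at to 13.98 for 1437610_x_at, differed between genotypes by -0.08 to 0.05. For 1437510_x_at the values were 13.76, 13.74, 13.81 and 13.81 in wild type and 13.71, 13.73, 13.84 and 13.85 in Crebbp+/-, a difference of -0.00029 (SE 0.09). The genotypes overlapped in each of the 8 (the range of all arrays was 0.08 to 0.40). Arrays numbered 2 all lay above those numbered 1 for 1437610_x_at, 1438986_x_at, 1455319_x_at, 1416624_a_at and 1437510_x_at, with differences of 0.09 to 0.22. They did not for 1459986_a_at, 1452701_x_at and 1435872_at. Over all tested, 10.2% were separated in this way. Of the 8, 5 carry the suffix _x_at, 2 the suffix _a_at and 1 the suffix _at.

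Differences between the samples numbered 1 and 2 ran in both directions among unlisted probe sets, and none passed the test in the fit without a term for genotype. With genotype as a term, 209 passed adjustment, and 419 were lower and 263 higher at an unadjusted p under 0.05. The shares of all tested probe sets in that fit are not given here, so these counts do not single out the unlisted ones. Without a term for genotype limma called 0 of 22518 (0.0%) at an adjusted p of 0.05, with the lowest at 0.18. At an unadjusted p under 0.05, 249 unlisted probe sets (8.58%) were lower in the samples numbered 2 and 131 (4.51%) higher, against 10.6% and 8.17% of all tested (18.7% in either direction). The difference of these shares was not tested. All 4 arrays numbered 2 lay below all 4 numbered 1 for 216 (7.44%, with 11.0% over all tested) and above for 143 (4.93%, with 10.2% over all tested). The median difference was -0.03, with -0.10 in wild type and 0.01 in Crebbp+/-. It took both signs when samples were left out: leaving out wild-type sample 1 gave 0.12 and wild-type sample 2 gave -0.16, while leaving out Crebbp+/- sample 1 gave -0.18 and Crebbp+/- sample 2 gave 0.03. The count of 249 became 141 when wild-type sample 1 was omitted, 165 when wild-type sample 2 was and 381 when Crebbp+/- sample 1 was. The count of 131 became 55 when Crebbp+/- sample 1 was omitted and 224 when Crebbp+/- sample 2 was.

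Single probe sets followed the number closely in both genotypes. For 1450399_at the arrays of wild-type samples 1 and 2 had 8.38, 8.33, 6.27 and 6.26, and those of Crebbp+/- samples 1 and 2 had 8.61, 8.47, 6.38 and 6.71. Its difference between numbers was -2.04 (SE 0.22, limma adjusted p = 0.18), and between genotypes 0.23 (SE 0.97). Probe sets 1446102_at, 1444360_at, 1440862_at and 1433100_at differed (number 2 minus number 1) by -2.21, -1.67, -1.84 and -1.17. In the other direction 1451168_a_at had 9.20, 8.77, 9.95 and 9.92 in wild type and 9.01, 9.07, 9.91 and 10.14 in Crebbp+/-, a difference of 0.97 (SE 0.13). Probe sets 1454870_x_at, 1439451_x_at, 1452426_x_at and 1434367_s_at differed by 1.55, 1.25, 0.75 and 0.37. The Gapdh 5' minus 3' signal was also lower in the samples numbered 2 in both genotypes, by a mean of -1.18, and its part in these values was not tested.

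Long noncoding and nuclear transcripts that have a symbol were set beside the unlisted probe sets. The 24 genes were chosen with earlier results of these data known, so the counts below are no independent check. Of the 24, 21 were on the array and 20 passed the limit. The median difference over their brightest probe sets was -0.16, and 15 of 20 were lower in Crebbp+/-, against 47.0% of all tested. Of the 20, 5 had an unadjusted limma p under 0.05, where 4.84% of all tested did, and 0 passed adjustment. Malat1, an abundant RNA kept in the nucleus, had 12.62 and 12.61 in wild-type samples 1 and 2 and 12.16 and 12.04 in Crebbp+/-, a difference of -0.52 (SE 0.11). Kcnq1ot1, an unspliced imprinted antisense RNA, differed by -1.003 (SE 0.19), and Meg3, an imprinted noncoding RNA, by -1.18 (SE 0.28). The largest difference of the list was that of Mir99ahg, a microRNA host gene, at -1.65 (SE 0.27). Xist and Neat1, both nuclear, differed by -0.33 (SE 0.12) and -0.49 (SE 0.27). For these 6 genes both wild-type samples lay above both Crebbp+/- samples, as they did for Rian at -0.38 (SE 0.26). The share of all tested probe sets that did so was not counted. Of the other long noncoding RNAs, Airn differed by -0.69 (SE 0.46) and Dleu2 by -0.30 (SE 0.40), with samples that overlapped. Ftx, Jpx and Pvt1 differed by -0.07, -0.10 and 0.81 (SE 0.78). The 8 host genes of small nucleolar RNAs ranged from -0.23 for Snhg1 to 0.13 for Snhg3, and none had an unadjusted p under 0.05. The difference between these kinds of transcript was not tested.

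Control probe sets for repeated and ribosomal sequence were not part of the test. The B1 repeat, a short interspersed element found in introns and untranslated regions, had 10.25 and 10.44 in wild type and 9.93 and 9.95 in Crebbp+/-, a difference of -0.41. The B2 repeat differed by -0.02 on a probe set with signals of 13.71 to 14.03, close to the top of the scale. Another B2 control had 7.35, 7.56, 8.18 and 8.02 on wild-type arrays and 7.16, 7.52, 7.64 and 7.79 on Crebbp+/- arrays. Its arrays overlapped between genotypes. The 3 probe sets for 18S ribosomal RNA differed by -0.53, -0.78 and -1.16. The sample means of the genotypes did not overlap for B1 and 18S, and no share over all tested probe sets was counted for this. Single arrays of the 18S 3' probe set did overlap. An array of wild-type sample 1 had 6.35 and an array of Crebbp+/- sample 2 had 6.57. The part of these signals in the unlisted probe sets was not tested.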

How the data were processed

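RNA of 4 preparations was measured on 8 arrays. The deposited table holds log2 values that the authors obtained with GCRMA, which corrects background and normalizes between arrays, per the submitters' processing notes. Which options were used is not stated there. A small number of arrays limits precision. Gene symbols and accessions came from the supplied platform annotation. The 2 arrays of a sample were averaged, and limma 3.58.1 in R 4.3.3 was run (eBayes, trend with level, 2 residual degrees of freedom) on all 22518 probe sets above the level limit, for genotype and for sample number. Benjamini-Hochberg adjustment covered all of them, with calls at 0.05. With 2 samples against 2 no permutation test can pass, so none was used. The fit was tested on simulated data. Named unlisted probe sets with separated arrays were the 12 lower and 8 higher in Crebbp+/- with the lowest unadjusted p. For sample number, the 5 per direction were chosen in the same way. Further unlisted ones were the 8 brightest and those next to the level limit. Named listed probe sets were those of lowest p per accession class and direction among those with separated arrays. The annotation lists no accession for unlisted probe sets, so their accession classes and the planned exclusion of those with an accession in the gene table could not be run. Blocks of probe set numbers, chosen after seeing the files, were used in their place. Members and lists were chosen with earlier results of these data known. The alternatives tried were other level limits, scalings, thresholds, probe set types, arrays as independent samples, a block for sample number, and each sample or array left out.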

Additional observations from a re-analysis of the deposited data

Results flagged for a closer look

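Of 100 groups of 4 arrays examined for 1 array far from the other 3, 6 held such an array, and chance gives about 1 in 20. Wild-type sample 1 array 2 had 7.67 for 1457583_at against 7.19 to 7.22. Crebbp+/- sample 2 array 1 had 7.62 for 1441535_at against 6.23 to 6.30, and Crebbp+/- sample 2 array 2 had 3.73 for 1446950_at against 2.43 to 2.65. Next to the level limit, wild-type sample 2 array 1 had 4.09 for 1439681_at against 2.52, and wild-type sample 2 array 2 had 2.716 for 1446043_at against 2.727 to 2.729. The median deviation of unlisted probe sets in middle blocks was -0.099 on 1 Crebbp+/- array against -0.15 to -0.14 on the other 3.

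The median difference of sample 2 from sample 1 over unlisted probe sets had opposite signs in the genotypes, with -0.097 in wild type and 0.011 in Crebbp+/-, and in the high blocks -0.135 and 0.0016. With 1 sample of each number per genotype, this difference was not tested.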

How the results depend on the processing

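No unlisted probe set passed the adjusted threshold between genotypes in any setting. The 20 named ones kept their direction in all 428 values. They had been chosen because all arrays of a genotype lay beyond those of the other. Leaving out arrays or samples could therefore not reverse their direction, and the 428 values are no independent check of it. The counts below are of unlisted probe sets at an unadjusted limma p under 0.05, without the shares of all tested probe sets. For each value that moved, the cause was not tested unless the setting itself removes probe sets. Quantile normalization, a floor and a fit without trend kept every result within its limits. With 8 arrays as independent, 55 were higher in Crebbp+/-, 209 were higher in the samples numbered 2, and 225 passed adjustment for number. Without a level limit, which adds probe sets at background, 94 were higher in Crebbp+/- and 220 in number 2. The genotype median was then 0.00114, its distance from listed probe sets -0.00188 and the high-block median 0.000943, and class medians were 0.00419 (other EST), 0.00369 (other mRNA), 0.00258 (RefSeq) and 0.00292 (RIKEN full-length). Above the upper quartile, 127 were lower and 4 higher in Crebbp+/-, and 98 lower and 83 higher in number 2. The median was -0.080, its distance -0.143, the high-block median -0.579 and that of RIKEN EST 0.0405. With arrays centred on listed probe sets the low-block median was -0.0320, and class medians were -0.0451 (no accession), 0.00620 (other EST), 0.00532 (other mRNA), -0.0158 (RefSeq), -0.0452 (RIKEN EST) and 0.0218 (RIKEN full-length). At an unadjusted p under 0.01, 90 were lower and 3 higher by genotype, and 73 lower and 37 higher by number. Without _x_at, _s_at and _a_at probe sets the median was -0.299, its distance -0.356, that of RIKEN EST 0.0345, and 67 were higher in number 2.

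With sample number as a replicate block, 685 were lower and 103 higher in Crebbp+/-; with genotype as a term, 419 were lower and 263 higher in number 2 and 209 passed adjustment. The labels do not say that a number marks a shared litter or day, and 2 pairs are too few to show pairing; deviations of same-numbered samples correlated with r = 0.554 over all tested and 0.417 over unlisted probe sets.

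Leaving out each sample or array gave 153 to 497 lower and 15 to 73 higher by genotype, a median of -0.291 to -0.151, a distance of -0.327 to -0.196, high-block medians of -0.468 to -0.244 and low-block medians of 0.00420 to 0.0535. By number it gave 141 to 381 lower, 55 to 224 higher and a median of -0.185 to 0.116. Class medians ran from -0.0299 to 0.0634 (no accession), 0.0274 to 0.0797 (other EST), 0.0304 to 0.0757 (other mRNA), 7.9e-05 to 0.0649 (RefSeq), -0.0187 to 0.0368 (RIKEN EST) and 0.0207 to 0.115 (RIKEN full-length). The planned exclusion of members with an accession in the gene table was not run.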
